A study of Mus musculus with 12 samples.

Results

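The unfolded protein response and the integrated stress response were examined through 41 genes in livers of 2 mouse models of obesity. The genes were taken from a list of named members (sensors, transcription factors, stress targets, chaperones, disulfide isomerases and degradation factors of the endoplasmic reticulum, ER), and each was read from its most abundant assembled transcript with status OK, meaning that Cuffdiff had enough data to compare the groups. A value was found for 34 members in HFD against CD and for 32 in db against misty, out of 11996 and 11561 genes with a value in all. In all, 36 members had a value in at least 1 comparison, 30 had one in both, and 5 (Asns, Ppp1r15a, Hspa5, Dnajc3 and Pdia3) had none.

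Total RNA of 12 livers was sequenced, with 3 livers in each of 4 groups. HFD livers came from wild-type (wt) C57BL/6 mice on a high-fat diet with 54 kJ% fat for 30 weeks, and CD livers from wt mice on the control diet (NCD in the labels) with 11 kJ% fat. db livers carried Leprdb, a mutation of the leptin receptor that causes overeating and diabetes, and misty livers were used as their lean controls, both on the control diet. The labels give 36 weeks of age and strain C57BL/6 for every liver. The methods describe male mice, a BKS background and a younger age for db and misty, and other numbers of animals, and the series text calls misty a model of obesity. The methods also give a different sequencing centre for the HFD and CD libraries than for the others. The genotype label of misty also names Leprdb, so whether these mice carried a db allele cannot be told from it. Leprdb is carried by every cell, so the liver was not the only organ with a mutant receptor.

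The ER folds secreted proteins, and hepatocytes secrete most proteins of the plasma. Unfolded protein in the ER is sensed by IRE1 (Ern1), PERK (Eif2ak3) and ATF6, which act through the factors XBP1, ATF4 and cleaved ATF6 to raise chaperones, disulfide isomerases and the machinery of ER-associated degradation. PERK shares its substrate, the translation factor eIF2, with other kinases that respond to amino acid shortage, haem shortage and virus, and this common arm, the integrated stress response, raises ATF4, CHOP (Ddit3) and their targets.

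The values are FPKM (fragments scaled by transcript length in kilobases and by sequencing depth), and each table holds 1 value per group, so the spread between livers is not known and no test was possible. Ratios are log2 of obese over control after adding 0.1 FPKM to both, which understates differences of low genes. A gene was counted as higher or lower when this ratio passed 1.5-fold. The counts of reads behind the values are unknown. The tables hold 62486 and 62945 lines with exactly 1 line for each assembled locus, so a value is that of 1 transcript and not the total of a gene. Albumin (Alb) and apolipoprotein B (Apob), which define hepatocytes, were listed under 0.01 FPKM in both tables, while apolipoprotein A1 (Apoa1) stood at 3659 FPKM in CD and 3623 FPKM in misty. A low value therefore does not show that a gene is silent. Whole liver holds several cell types, and fewer cells of a type and less RNA per cell cannot be told apart.

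Sequence features were read from RefSeq promoters of build GRCm38.p6, 250 bases before each start, in which 36 of the members were matched by symbol. The elements searched are those known for this response, and the members are its known genes. Higher shares among the members are therefore not independent of how they were chosen, and are a description only. The ER stress response element ERSE (CCAAT, then 9 bases of any kind, then CCACG, on either strand), the element through which ATF6 and XBP1 act, was found in 9 of these 36 promoters (25.0%) and in 35 of 27025 genes in all (0.130%). ERSE-II (ATTGG, 1 base of any kind, then CCACG) stood in Herpud1 alone, 2.78% of the members against 0.0370% of all genes. The core of the XBP1 element UPRE (TGACGTGG) stood in none, against 0.603% of all genes. The CARE element of ATF4 and CHOP dimers (TGATGNAA) stood in 4 members (Atf3, Chac1, Asns and Herpud1), 11.1% against 3.91% of all genes. The ERSE windows of the 7 members with a value, the ERSE-II window of Herpud1 and the CARE windows of Atf3 and Chac1 are shown because these are the elements known for the chaperone and ATF4 branches described next. Each runs 5′ to 3′ on the strand of its gene, and capitals mark the element. The elements of Calr, Creld2, Derl3, Atf3 and Chac1 lie on the reverse strand, and Hsp90b1 has a further ERSE in reverse that is not shown.
Hsp90b1 (chr10:86705618-86705676, - strand): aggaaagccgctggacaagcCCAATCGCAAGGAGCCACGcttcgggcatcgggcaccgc
Calr (chr8:84847055-84847113, - strand): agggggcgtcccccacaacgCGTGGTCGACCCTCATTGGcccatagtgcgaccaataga
Canx (chr11:50325780-50325838, - strand): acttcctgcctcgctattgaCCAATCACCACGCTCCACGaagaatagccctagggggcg
Creld2 (chr15:88819500-88819558, + strand): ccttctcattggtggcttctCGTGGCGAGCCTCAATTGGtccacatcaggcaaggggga
Pdia6 (chr12:17266471-17266529, + strand): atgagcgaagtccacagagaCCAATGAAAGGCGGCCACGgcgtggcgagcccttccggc
Derl3 (chr10:75893222-75893280, + strand): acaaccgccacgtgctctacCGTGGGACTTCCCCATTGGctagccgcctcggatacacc
Syvn1 (chr19:6046512-6046570, + strand): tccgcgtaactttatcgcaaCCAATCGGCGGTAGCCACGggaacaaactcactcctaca
Herpud1 (chr8:94386357-94386407, + strand): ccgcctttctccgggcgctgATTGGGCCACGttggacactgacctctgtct
Atf3 (chr1:191183416-191183463, - strand): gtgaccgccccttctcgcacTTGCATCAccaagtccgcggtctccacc
Chac1 (chr2:119351029-119351076, + strand): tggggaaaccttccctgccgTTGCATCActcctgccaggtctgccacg

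To ask how the response stood after long high-fat feeding, HFD livers were set against CD livers. Of the 34 members, 13 were higher, none was lower and 21 lay within 1.5-fold. The share that was higher, 38.2%, stood beside 14.4% of all 11996 genes, and the share that was lower, 0%, beside 7.95% of all genes. The median log2 ratio of the members was 0.40, against -0.01 over all genes, and 26 members lay above 0 and 8 below. In 28 of the 34 the higher group reached 1 FPKM.

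**Figure D1:**
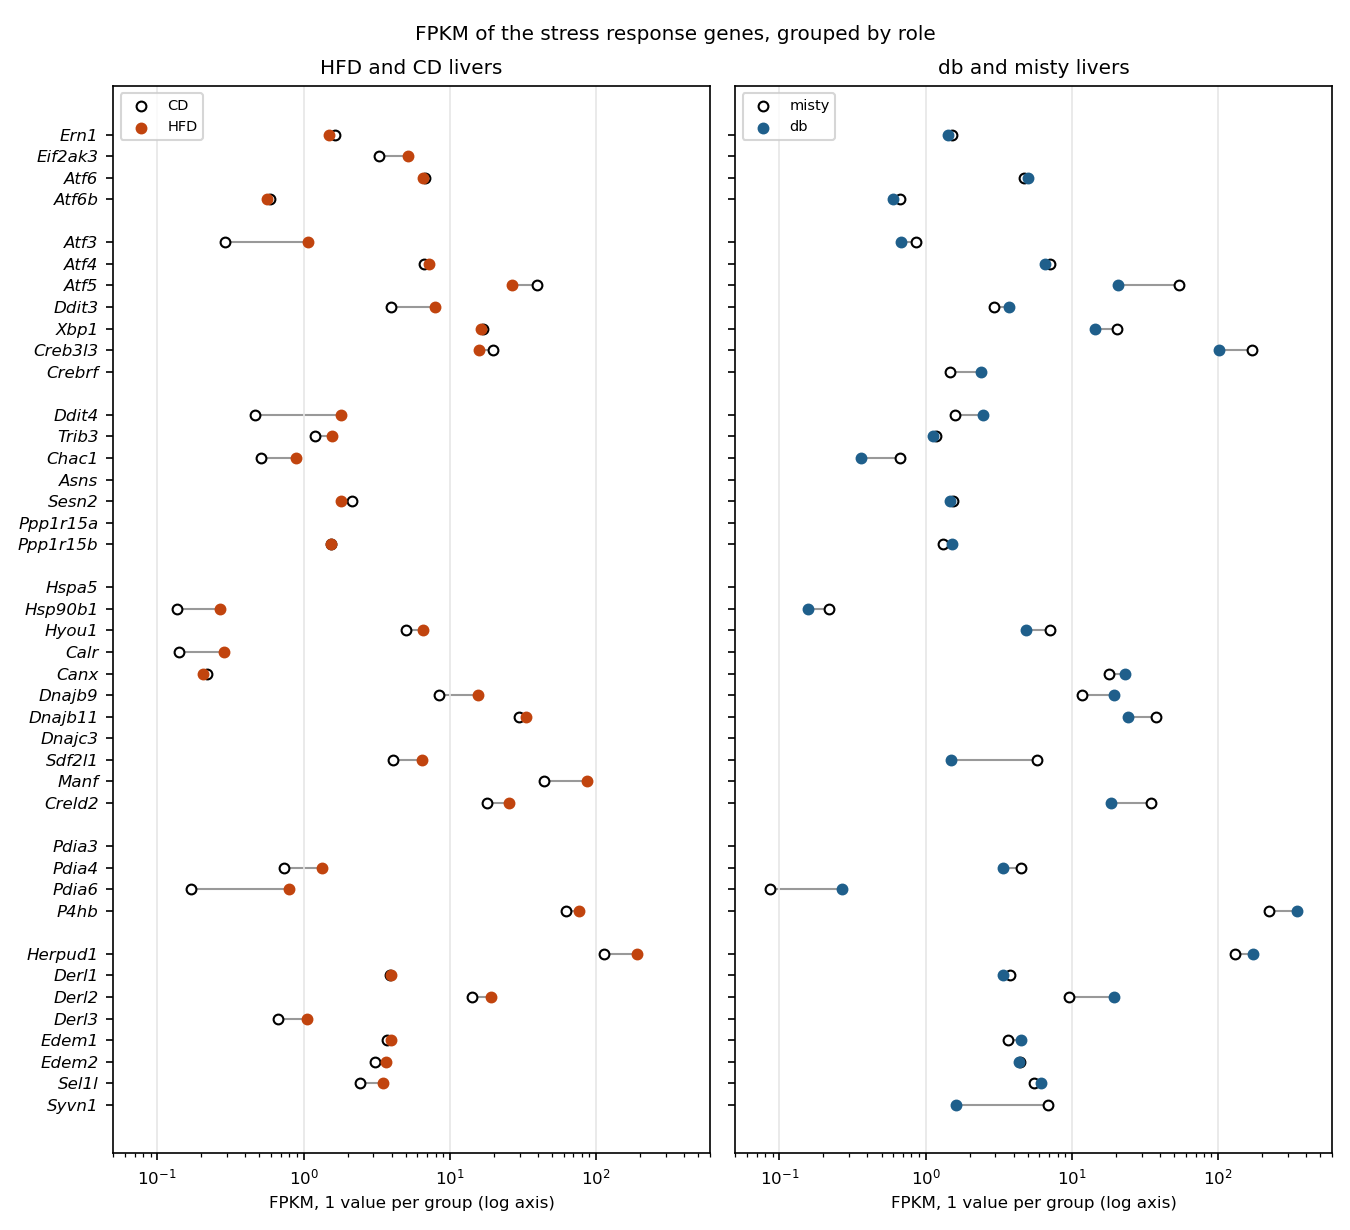
FPKM of each of the 41 genes in the 4 groups (horizontal axis, log scale), with CD and HFD on the left and misty and db on the right, open circles for controls, filled circles for obese groups and a gap between roles. Each circle is the 1 value of a group, and rows without circles have no status OK transcript in that table. On the left no filled circle lies more than 1.5-fold below its open circle, and on the right 7 do.

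Among the sensors with HFD, only Eif2ak3 passed 1.5-fold. PERK itself (Eif2ak3, chr6:70844515-70905245) was listed at 3.29 FPKM in CD and 5.17 in HFD, a log2 ratio of 0.64. This line stood in the run of the opposite strand, described below. The line of its own strand, without status OK, was at 0.104 and 0.166 FPKM (0.38). The other sensors were nearly level between the diets. The IRE1 kinase and nuclease Ern1 was at 1.64 and 1.49 FPKM (-0.13), Atf6 at 6.81 and 6.59 FPKM (-0.05), and its relative Atf6b at 0.590 and 0.566 FPKM (-0.05).

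The transcription factors divided with HFD. Atf3, an immediate stress factor, was at 0.289 FPKM in CD and 1.07 in HFD (log2 ratio 1.59), and Ddit3, which encodes the death-associated factor CHOP, at 3.96 and 7.87 FPKM (0.97). Both were higher past 1.5-fold, Atf3 on a line in the run of the opposite strand. Atf4, whose protein is mainly controlled by translation, was at 6.69 and 7.17 FPKM (0.10), and Xbp1, whose active form depends on splicing that these values do not resolve, at 16.9 and 16.3 FPKM (-0.05). The liver factor Creb3l3 was at 19.6 and 15.8 FPKM (-0.30). Atf5, another target and partner of the ATF4 arm, was the member furthest below 0, with 39.2 FPKM in CD and 26.6 in HFD (-0.56), just inside the limit at 1.47-fold.

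Of the ATF4 targets and eIF2 phosphatase subunits, Ddit4 and Chac1 were higher with HFD and 3 others lay within the limit. Ddit4, the inhibitor of mTORC1 signalling also named REDD1, was at 0.463 FPKM in CD and 1.79 in HFD (1.75). Chac1, which degrades glutathione, was at 0.511 and 0.892 FPKM (0.70). The pseudokinase gene Trib3 was at 1.20 and 1.56 FPKM (0.35), and Sesn2, a leucine sensor, at 2.13 and 1.79 FPKM (-0.24). Ppp1r15b, the constitutive subunit of the eIF2 phosphatase, was at 1.54 FPKM in both groups (0.00).

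The ER chaperones with HFD lay mostly above their CD level, 5 of 9 past 1.5-fold with a median log2 ratio of 0.65. Of all genes, 14.4% were higher. Manf, a secreted ER protein, was at 44.3 FPKM in CD and 87.2 in HFD (0.98), and Dnajb9, a J-domain partner of BiP that restrains IRE1, at 8.39 and 15.6 FPKM (0.89). Sdf2l1, another BiP partner, was at 4.07 and 6.49 FPKM (0.66). These 3 were measured well above 1 FPKM. The lectin Calr passed the limit at 0.140 and 0.287 FPKM (0.69), and Hsp90b1 (GRP94) at 0.136 and 0.270 FPKM (0.65), the latter on a retained-intron transcript. The chaperone median is the value of Hsp90b1.

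Another 4 chaperone genes lay within the limit with HFD. Creld2, a secreted ER protein, was at 17.9 and 25.4 FPKM (0.50), Hyou1, which exchanges the nucleotide of BiP, at 5.02 and 6.56 FPKM on a retained-intron transcript (0.38), and the BiP partner Dnajb11 at 29.7 and 33.4 FPKM (0.17). The membrane lectin Canx was at 0.218 and 0.205 FPKM (-0.06). BiP itself (Hspa5), the central chaperone, had no value by the rule and was listed at 0.0497 FPKM in CD and 0.0713 in HFD.

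Disulfide isomerases, which form and rearrange disulfide bonds, and degradation factors, which return misfolded protein to the cytosol, all lay above 0 with HFD on the chosen lines. On lines of their own strand, described below, Pdia4 was at -1.33 and Derl1 at -0.85. Pdia6 was at 0.169 FPKM in CD and 0.791 in HFD (log2 ratio 1.73), Pdia4 at 0.739 and 1.34 FPKM (0.78), and P4hb, the classic isomerase, at 62.5 and 76.7 FPKM (0.30). Herpud1, a scaffold of the degradation complex, had the highest FPKM of any member and passed the limit, with 114 FPKM in CD and 189 in HFD (0.72). The remaining 6 degradation genes were within it. Derl3, a channel component, was at 0.666 and 1.05 FPKM (0.58, just inside the limit), the adaptor Sel1l at 2.45 and 3.51 FPKM (0.50) and Derl2 at 14.2 and 19.0 FPKM (0.42). The mannosidase-like genes Edem2 (0.24) and Edem1 (0.10) and Derl1 (0.04) were between 3.07 and 3.99 FPKM in both groups. Edem1 was read in both comparisons from a transcript annotated for nonsense-mediated decay.

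Members just past the limit with HFD were Eif2ak3 at 1.56-fold and Hsp90b1 at 1.57-fold, so the count of 13 depends on where the limit is put. With a pseudocount of 1 FPKM it was 7 (20.6%, against 5.05% of all genes), and at 2-fold it was 3 (8.82%, against 6.85%). Pdia4 turned to -0.16 when the transcripts of each gene were summed.

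To ask the same in a genetic model, db livers were set against misty livers. Of 32 members, 6 were higher, 7 were lower and 19 lay within 1.5-fold. The share that was higher, 18.8%, stood beside 15.4% of all 11561 genes, and the share that was lower, 21.9%, beside 12.0%. The median log2 ratio of the members was -0.07, against 0.00 over all genes, with 13 members above 0 and 19 below.

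The sensors with a value were level between db and misty, and Eif2ak3 had no value. Ern1 was at 1.52 and 1.43 FPKM (misty first, log2 ratio -0.09), Atf6 at 4.71 and 5.01 FPKM (0.09) and Atf6b at 0.672 and 0.599 FPKM (-0.14). Of the transcription factors, Atf5 and Creb3l3 were lower in db. Atf5 was at 54.4 FPKM in misty and 20.6 in db (-1.40), and Creb3l3, which in the liver also drives genes of triglyceride and fasting metabolism, at 170 and 102 FPKM (-0.74). Xbp1 was at 20.5 and 14.3 FPKM (-0.52, just inside at 1.43-fold). Atf3 was at 0.865 and 0.683 FPKM (-0.30), Atf4 at 7.08 and 6.50 FPKM (-0.12), and Ddit3 at 2.93 and 3.73 FPKM (0.34). Crebrf, a regulator of CREB3 factors, was higher in db at 1.48 and 2.41 FPKM (0.67).

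Of the ATF4 targets in db, Ddit4 was higher and Chac1 lower. Ddit4 was at 1.59 FPKM in misty and 2.47 in db (0.61, just past the limit at 1.52-fold), and Chac1 at 0.670 and 0.364 FPKM (-0.73). Trib3 was at 1.17 and 1.13 FPKM (-0.05), Sesn2 at 1.54 and 1.48 FPKM (-0.05) and Ppp1r15b at 1.31 and 1.51 FPKM (0.19).

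Chaperone genes lay mostly below their misty level, 3 of 7 past 1.5-fold, with a median log2 ratio of -0.54. Of all genes, 12.0% were lower in db. Sdf2l1 was at 5.80 FPKM in misty and 1.499 in db (-1.88), a 3.69-fold lower value. Creld2 was at 34.6 and 18.6 FPKM (-0.89) and Dnajb11 at 37.8 and 24.3 FPKM (-0.64). Dnajb9 ran the other way at 11.7 and 19.3 FPKM (0.71). Hyou1 was just inside the limit at 7.11 and 4.86 FPKM (-0.54), Hsp90b1 was at 0.220 and 0.156 FPKM (-0.32) and Canx at 17.8 and 23.1 FPKM (0.38). Hyou1 and Hsp90b1 were again read on retained-intron transcripts. The chaperone median is the value of Hyou1, whose coding line on its own strand was at 0.249 and 0.216 FPKM (-0.14). Manf and Calr, both higher with HFD, had no value in db, so the chaperone medians of the models cover different genes.

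Disulfide isomerases and degradation factors were mixed in db. P4hb was at 224 FPKM in misty and 346 in db (0.63, just past the limit at 1.54-fold), and Pdia6 at 0.0865 and 0.270 FPKM (0.99), while Pdia4 was at 4.47 and 3.37 FPKM (-0.39). The ubiquitin ligase Syvn1 (HRD1) was lower, at 6.82 and 1.62 FPKM (-2.01), and its partner Derl2 higher, at 9.53 and 19.3 FPKM (1.01). Sel1l, which holds the ligase in its complex, was at 5.49 and 6.16 FPKM (0.16). Herpud1 was at 131 and 174 FPKM (0.41), Edem1 at 3.68 and 4.46 FPKM (0.27), Edem2 at 4.41 and 4.33 FPKM (-0.03) and Derl1 at 3.77 and 3.38 FPKM (-0.15).

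With a pseudocount of 1 FPKM, 3 members were higher (9.38%, against 7.02% of all genes) and 6 lower (18.8%, against 4.08%) in db, and Crebrf, Ddit4, Chac1 and Pdia6 fell within the limit. At 2-fold 1 was higher (3.12%, against 7.30% of all genes) and 3 were lower (9.38%, against 4.92%).

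**Figure D2:**
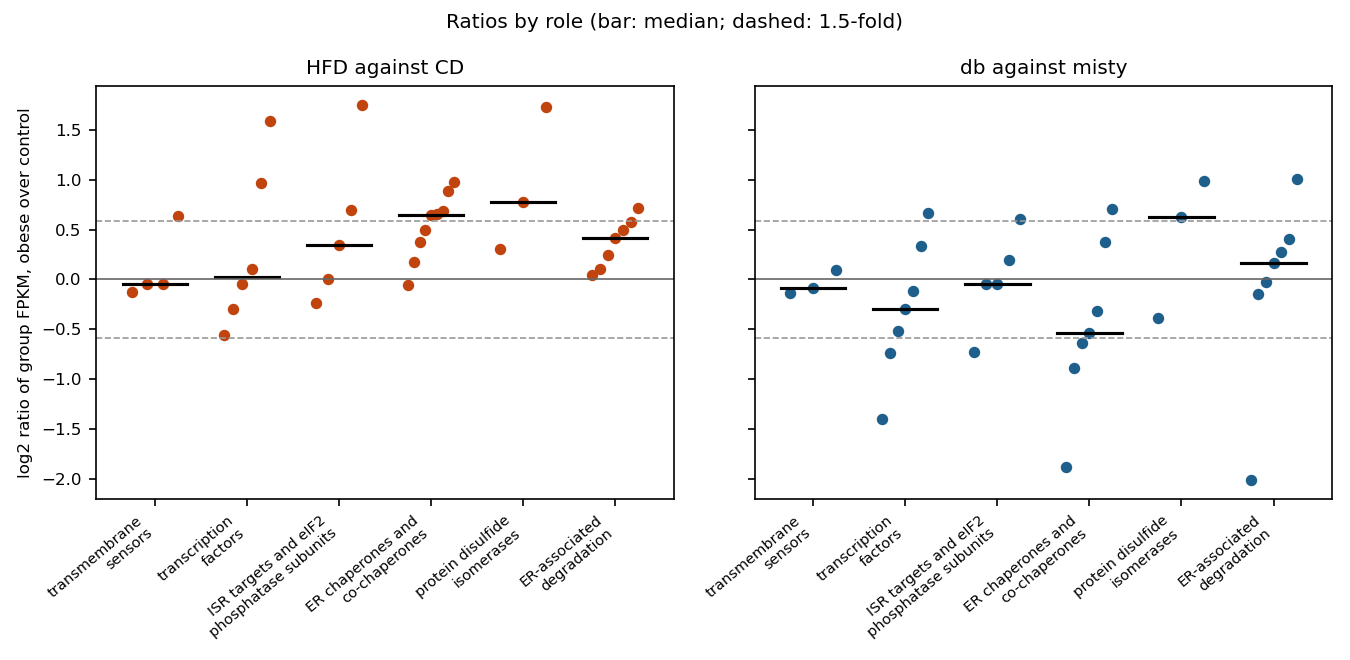
Log2 ratio of the group FPKM, obese over control (vertical axis), for each gene with a value (points) in 6 roles (horizontal axis), for HFD against CD on the left and db against misty on the right. Black bars are medians and dashed lines 1.5-fold. The chaperone median is 0.65 over 9 genes on the left (the value of Hsp90b1) and -0.54 over 7 genes on the right (that of Hyou1). Both values come from retained-intron transcripts, and Manf and Calr have a value on the left only. The sensors lie near 0 apart from Eif2ak3 with HFD, which has no value on the right.

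To ask whether both models shared the pattern, the 30 members with a value in both comparisons were set side by side. The models have no samples in common, but their tables were normalized separately, so only ratios were compared. Ddit4, Dnajb9 and Pdia6 were higher in both, 3 of 30 members against 4.41% of 9746 genes. Sdf2l1 and Chac1 were higher with HFD and lower in db, 2 of 30 against 1.08% of all genes. None was lower in both. With a pseudocount of 1 FPKM the count higher in both was 1 and that higher with HFD and lower in db 0, at 2-fold both were 0, and on lines of the own strand, described below, both were 1. Across these 30 genes Pearson's r of the ratios was 0.33 and Spearman's rho 0.27, against 0.40 and 0.30 over all genes, as a description across genes, which share their libraries.

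The ratio was larger with HFD than in db for 22 of the 30 members (73.3%), against 49.0% of all genes, and the median difference was 0.37 on the log2 scale, against -0.01. Of the 30, 12 members lay above 0 with HFD and below 0 in db, against 1761 of 9746 genes in all. The widest gaps were those of Sdf2l1 (2.54), Atf3 (1.90), Chac1 (1.43) and Creld2 (1.39), and the widest in the other direction was that of Derl2 (-0.59). No test of the difference between models was possible with 1 value per group. By the methods, the models also differed in strain, age, sequencing centre and library preparation, and these cannot be told apart from the model.

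**Figure D3:**
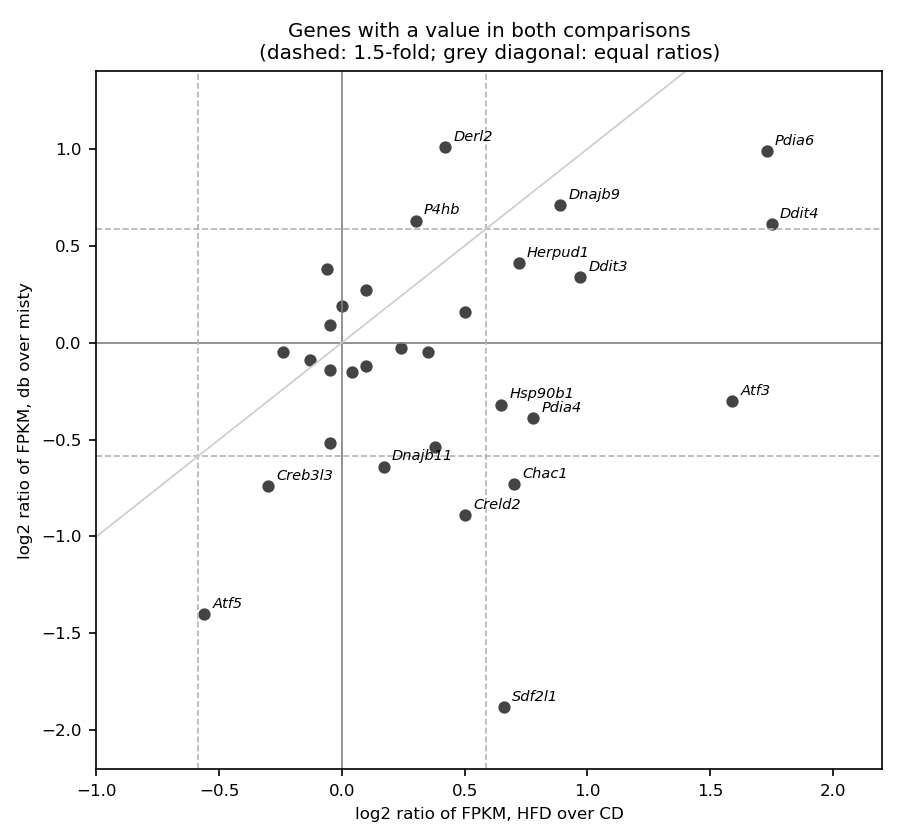
Log2 ratio of FPKM with HFD over CD (horizontal axis) and in db over misty (vertical axis) for the 30 genes with both values, named where either passes 1.5-fold (dashed lines). The grey diagonal marks equal ratios. Pdia6, Ddit4 and Dnajb9 lie in the upper right, Sdf2l1 and Chac1 in the lower right, and 22 genes lie under the diagonal.

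Levels of the same transcript could differ widely between the tables. The lines read in both tables carried the same transcript name for all 30 genes, and 3 of them differed over 5-fold between the controls. Creb3l3 was at 19.6 FPKM in CD and 170 FPKM in misty, and Pdia4 at 0.739 and 4.47 FPKM. Canx was at 0.218 and 17.8 FPKM, but on different lines of the gene, as described next. Some members with a status OK transcript in only 1 table differed widely too. Manf, at 44.3 FPKM in CD, was listed at 0.107 FPKM in misty and 0.0564 in db, and Syvn1, at 6.82 FPKM in misty, at under 0.01 FPKM in both diet groups. Derl3 was listed at 0.182 FPKM in misty without status OK. Eif2ak3 had in misty only a line of its own strand, at 0.0435 FPKM, where that line was at 0.104 FPKM in CD. Crebrf had no status OK line with HFD, and Calr none in db. Of the members without a value in either table, Pdia3 was listed at 0.0148 FPKM in CD and 0.0325 in misty, Dnajc3 at 0.0122 FPKM in CD, Asns, the asparagine synthetase, under 0.01 FPKM in all groups, and Ppp1r15a (GADD34), the inducible subunit of the eIF2 phosphatase, at 0 in all groups. The controls share the diet and, by the labels, strain and age, which the methods give as different. Genotype, the sequencing centre given in the methods and the separate assembly of each table also differ between the controls. These cannot be told apart here.

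The order of lines in the tables gave a further property of the values. Within a chromosome the loci run in ascending position, start again and run once more, and 92.9% and 93.3% of transcripts with a single line stand in the run that holds their own annotated strand. A gene can have a line in each run, and of the status OK lines, 54.4% and 54.5% stood in the run of the opposite strand. So did the chosen line of 14 of 34 members with HFD (among them Eif2ak3, Atf3, Ddit4, Chac1, Dnajb9 and Pdia4) and of 15 of 32 in db (among them Crebrf, Ddit4, Chac1 and Dnajb9). By the same choice of line, it was 47.7% of all genes in each comparison, so this is not particular to the members. The tables have no strand column for loci, so the strand is read from this order, and the origin of these lines was not tested. The chosen lines of Canx, Sesn2 and Edem2 stood in different runs in the 2 tables. The line of Canx on its own strand was at 1.13 FPKM in misty and 2.07 in db (0.82), against 0.218 FPKM in CD.

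Counted over lines of the own run only, 9 of 24 members were higher and 2 lower with HFD (all genes 14.2% and 11.4%), and over lines of the opposite run, 8 of 19 were higher and none lower (15.0% and 5.06%). In db, 4 of 24 were higher and 7 lower on the own run (16.6% and 15.2%), and 4 of 22 higher and 3 lower on the opposite run (14.2% and 9.22%). Lines of the same gene had ratios of the same sign in 6 of 9 members with HFD and in 10 of 14 in db. The same share over all genes was not computed, and the lines of a gene share their libraries. With HFD, both lines were past 1.5-fold higher for Ddit4 (1.51 own, 1.75 opposite), Dnajb9 (0.75 and 0.89) and Sdf2l1 (0.66 and 0.75). In db, both were past it and lower for Sdf2l1 (-1.88 and -1.70), Chac1 (-0.97 and -0.73) and Creld2 (-0.89 and -0.69).

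Some members did not hold their direction between the lines. Pdia4 with HFD was at -1.33 on its own run, from 1.27 FPKM in CD to 0.442 FPKM in HFD, and at 0.78 on the opposite run. Dnajb11 in db was at -0.64 on its own run and at 1.03 on a much lower opposite line (0.367 and 0.854 FPKM). Derl1 with HFD was at -0.85 on its own run, at 0.460 and 0.212 FPKM, and at 0.04 on the opposite run. P4hb in db was at 0.63 and -0.01. The higher value of Ddit4 in db (0.61) was at 0.26 on its own run, and that of Dnajb9 (0.71) at 0.55, both within the limit.

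**Figure D4:**
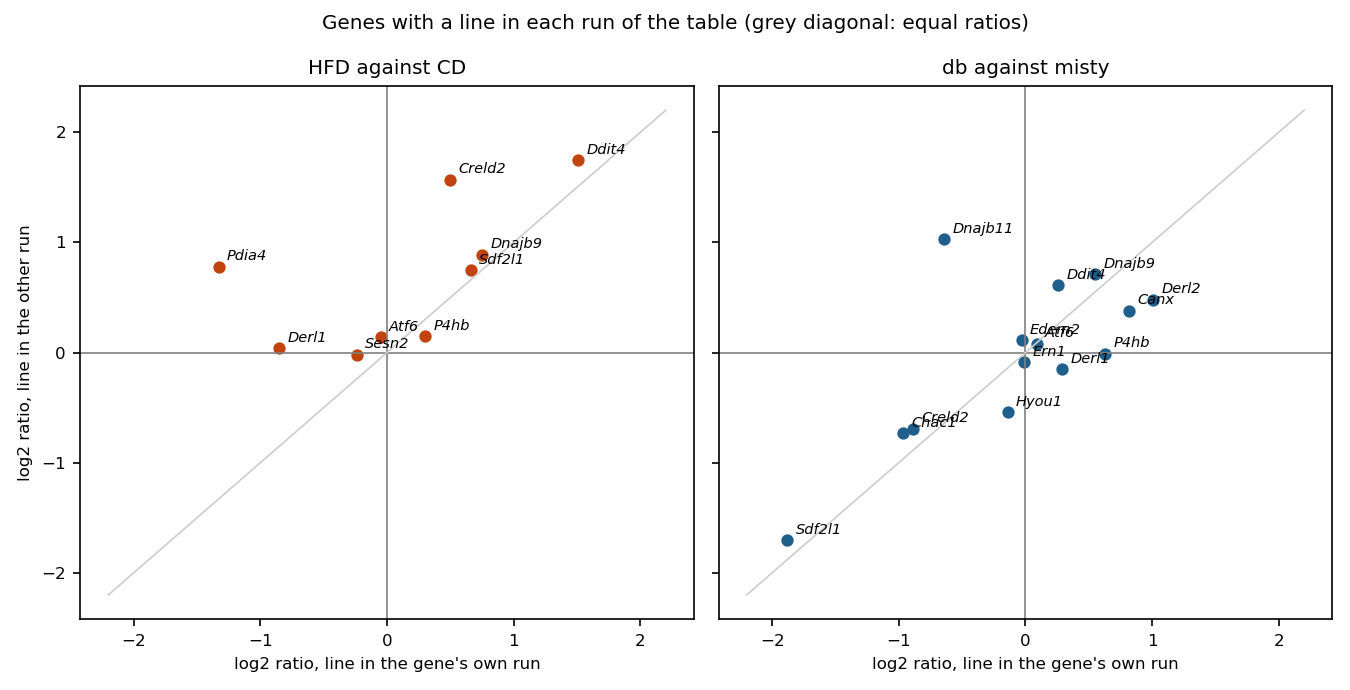
Log2 ratio of the line in the run of the gene's own strand (horizontal axis) and of the line in the other run (vertical axis), for members with a status OK line in each, 9 with HFD (left) and 14 in db (right). The grey diagonal marks equal ratios. Sdf2l1 lies near the diagonal in both, while Pdia4 on the left and Dnajb11 on the right have ratios of opposite sign.

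By promoter, 6 members had an ERSE and a value with HFD (Hsp90b1, Calr, Canx, Creld2, Pdia6 and Derl3). Their median log2 ratio was 0.62 with 3 higher, and the 23 members without one had 0.35 with 9 higher. The 3 higher with an ERSE (Hsp90b1, Calr and Pdia6) were all under 1 FPKM in both groups. With a pseudocount of 1 FPKM, Hsp90b1 (0.16) and Calr (0.17) fell within the limit and Pdia6 (0.62) stayed past it. In db the median of the 5 members with an ERSE was -0.32, with 1 higher (Pdia6) and 2 lower (Creld2 and Syvn1), and that of the 23 without was -0.05, with 5 higher and 5 lower. The 3 members with a CARE and a value (Atf3, Chac1 and Herpud1) were all higher with HFD, with a median of 0.72. In db 1 was lower (Chac1), with a median of -0.30. Atf3 and Chac1 were read from lines in the run of the opposite strand. Chac1 was under 1 FPKM in all groups, and with a pseudocount of 1 FPKM it was within the limit with HFD (0.32). All counts by promoter stand beside 14.4% of all genes higher and 7.95% lower with HFD, and 15.4% and 12.0% in db. A match to these letters is a description of the sequence and no measurement of binding.

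Other genes of these pathways were read from 8 lists of 114 genes. With HFD, 13 of 72 genes with a value were higher (18.1%, against 14.4% of all genes) and 3 lower (4.17%, against 7.95%), with a median of 0.08. In db, 6 of 69 were higher (8.70%, against 15.4%) and 11 lower (15.9%, against 12.0%), with a median of -0.02. The list of amino acid, tRNA charging and other ATF4 targets held the most genes past the limit. With HFD, 7 of its 20 genes were higher and 1 lower (median 0.30), and in db 1 of 16 was higher and 7 lower (median -0.46).

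Psat1, an enzyme of serine synthesis, was higher with HFD, from 0.214 FPKM in CD to 1.56 FPKM (log2 ratio 2.40), and lower in db, from 1.16 FPKM in misty to 0.282 FPKM (-1.72), on the opposite run in both tables. Nupr1, a stress-induced chromatin protein, was at 0.293 and 1.01 FPKM with HFD, 2.83-fold higher. Cth, the enzyme that makes cysteine from cystathionine, was at 4.48 and 2.69 FPKM with HFD (-0.72), on a retained-intron transcript in the opposite run. Fgf21, a hormone of the fasting and stressed liver, was at 18.6 FPKM in misty and 2.21 in db (-3.01), and the glycyl-tRNA synthetase Gars at 3.64 and 1.67 FPKM (-1.08). Vldlr, a lipoprotein receptor, was higher in both, at 0.974 and 2.57 FPKM with HFD (1.31) and at 0.199 and 2.97 FPKM in db (3.36). Its lines too stood in the opposite run in both tables.

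The other lists held fewer genes past the limit. Their counts stand beside the 14.4% of all genes higher and 7.95% lower with HFD, and 15.4% and 12.0% in db. The values named below for Creb3l1, Ero1l and Nploc4 came from lines in the opposite run. Of the eIF2 kinases, eIF2 and eIF2B, none of 6 passed it with HFD, and in db 1 of 7 was lower, the eIF2B subunit Eif2b4 at 4.59 and 1.75 FPKM (-1.34). Of the ER oxidation and glycan quality control genes, none of 12 passed it with HFD. In db 2 of 10 were lower, the glucosidase Mogs at 3.29 and 0.406 FPKM (-2.74) and Pdia5 at 21.5 and 9.61 FPKM (-1.16), and 1 was higher, the ER oxidase Ero1l at 3.20 and 5.08 FPKM (0.65). Of the proteases and membrane-bound factors, 1 of 7 was higher with HFD, Creb3l1 at 0.655 and 1.69 FPKM, 2.38-fold higher, and none of 8 passed the limit in db.

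The translocon and signal peptide list had 3 of 10 genes higher with HFD and 3 of 9 in db, with none lower, and of these only Spcs3, a signal peptidase subunit, reached 1 FPKM, in db at 2.18 and 3.91 FPKM (0.81). Of the other ER-associated degradation genes, 1 of 7 was lower in each comparison, the ligase Rnf5 with HFD at 17.3 and 10.5 FPKM (-0.71) and the p97 cofactor Nploc4 in db at 1.18 and 0.677 FPKM (-0.72). Mitochondrial chaperones and proteases had 2 of 6 higher and 1 lower with HFD, the latter Clpx at 50.6 and 32.1 FPKM (-0.66), and none of 7 past the limit in db. Of the cell death effectors, none of 4 passed it with HFD and 1 of 5 was higher in db.

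Markers of other cells differed beside these results. Counts here and below stand beside 14.4% of all genes higher and 7.95% lower with HFD, and 15.4% and 12.0% in db. With HFD, 8 of 9 macrophage and monocyte markers with a value were higher and none lower (median log2 ratio 1.53, summed level 42.9 FPKM in CD and 100 in HFD), among them Cd14 (2.18) and Itgax (2.11). All 4 neutrophil markers with a value were higher too, with a summed level of 4.26 and 14.9 FPKM, as were 3 of 3 of T and NK cells (0.515 and 1.94 FPKM). In db, 1 of 3 neutrophil markers was higher (S100a8, 0.65) and 1 lower (S100a9, -1.42), with a summed level of 2.39 and 2.15 FPKM, and the 1 T and NK marker with a value was within the limit (1.26 and 1.43 FPKM). Ly6g, which defines neutrophils, was listed under 0.01 FPKM in both tables. In db, 2 of 7 macrophage markers were higher and 1 lower (median 0.06, summed level 29.0 and 26.2 FPKM). Several members, Atf3, Ddit3 and Ddit4 included, are expressed in such cells as well as in hepatocytes, and the part of these cells in the ratios was not tested.

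The immediate early genes, which respond to handling as well as to signals, differed by model in their counts. With HFD, 4 of 6 were higher and none lower (median 0.77, summed level 12.4 and 16.5 FPKM), with Fos at 0.420 and 1.15 FPKM (1.26). In db, none of 5 was higher and 2 were lower (median -0.50, summed level 18.1 and 13.5 FPKM), with Egr1 at 5.04 and 2.83 FPKM (-0.81). All 6 values with HFD and all 5 in db came from lines in the run of the opposite strand, whose origin was not tested. Of the 5 genes with a value in both models, Egr1 alone had ratios of opposite sign (0.73 with HFD). Atf3, itself such a gene, was at 1.59 with HFD and -0.30 in db, and the part of handling was not tested. Plasma cells and pancreas have a highly active ER. Of the B and plasma cell markers 2 of 6 were higher with HFD, with Jchain at 1.10 and 3.05 FPKM (1.39) on a retained-intron transcript. In db 1 of 3 was higher and 1 lower. The pancreas acinar genes Prss1 and Amy2a5 were listed under 0.01 FPKM in both tables. Of the others, Cela1 was within the limit with HFD, and in db 1 of 2 genes was higher, Cela1 at 0.792 and 1.96 FPKM (2.30-fold), and 1 lower, Ctrb1 at 0.345 FPKM in misty and listed at 0 in db.

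Stellate cell, endothelial and cholangiocyte markers had 1 of 3, 2 of 3 and 2 of 3 genes higher with HFD and none lower. In db the counts were 2 of 4 stellate markers higher, none of 3 endothelial markers past the limit, and 1 of 3 cholangiocyte markers lower (Sox9, -1.68). Of the hepatocyte markers, 2 of 5 were lower with HFD, with Apoa1 at 3659 and 1847 FPKM (-0.99), and in db 2 of 6 were lower and 1 higher, with Apoa1 at 3623 and 1244 FPKM (-1.54).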

How the data were processed

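Total RNA of 12 livers was depleted of ribosomal RNA and sequenced from strand-specific libraries. Per the labels and methods, the authors removed ribosomal reads with Bowtie2 2.2.9, used STAR 2.6.0c for alignment to GRCm38, and ran Cufflinks 2.2.1 for assembly and Cuffdiff for the group values. The deposited values are FPKM, 1 per group and assembled locus, in 1 table per model. The authors joined GC content, a percent, and transcript length from Ensembl, and neither entered a result. The deposited tables also hold the authors' fold changes, test statistics, p-values and q-values, which were not used.

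Symbols were matched as listed, and for each gene the status OK line with the highest mean FPKM was taken. Lines without a test (42627 and 42978), failed (17 and 37) or with low data (8 and 12) were left out. Ratios used a pseudocount of 0.1 FPKM, and counts a limit of 1.5-fold, over all genes by the same rule. Python 3.11.15, pandas 2.3.3, numpy 2.4.6 and matplotlib 3.10.9 were used. The selection and counting were run on control values with known changes set in and no noise, which checks the arithmetic only. With 1 value per group no p-value was computed, and depth per liver is unknown. The tables were normalized separately.

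All members were named. Genes of the other pathway lists were named when past 1.5-fold and at 1 FPKM or above in either group, up to 3 in each direction, and marker genes up to 2 per list. Alb, Apob, Ly6g, Prss1, Amy2a5 and Ctrb1 were named after their values were seen. The members and lists were chosen with earlier results of these data known. Alternatives were the pseudocount, a filter on low values, summed or protein-coding transcripts, centring and the fold, and the 2 runs of lines were added after seeing the data. A planned reading of ER retention signals was not run, since no protein sequences were used here. An allele in the genotype label of the misty group is not reported here.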

Additional observations from a re-analysis of the deposited data

How the results depend on the processing

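With HFD, the count of higher members was 7 with a pseudocount of 1 FPKM (median 0.26; 20.6% of members against 5.05% of all genes), 3 at 2-fold (8.82% against 6.85%) and 8 on the opposite run (42.1% against 15.0%), and that of lower members was 1 at the lowest fold tried (2.94% against 17.8%) and 2 on the own run (8.33% against 11.4%). In db, higher members numbered 3 with a pseudocount of 1 FPKM (9.38% against 7.02%) and 1 at 2-fold (3.12% against 7.30%), and lower members 3 at 2-fold (9.38% against 4.92%), 11 at the lowest fold tried (34.4% against 24.1%) and 3 on the opposite run (13.6% against 9.22%). Members higher in both models numbered 1 with a pseudocount of 1 FPKM, 0 at 2-fold, 6 at the lowest fold tried and 1 on the own run. Those higher with HFD and lower in db numbered 0 with a pseudocount of 1 FPKM, 1 with a minimum of 1 FPKM in the higher group, 0 at 2-fold, 6 at the lowest fold tried and 1 on the own run. A larger pseudocount or fold makes each count smaller by construction, and the runs hold fewer genes. The direction turned for Pdia4 with HFD (-0.16 when transcripts were summed, -1.33 on the own run), and in db on the opposite run for Dnajb11 (1.03) and P4hb (-0.01); the cause was not tested. Subtracting the median of all genes left 65 of 66 single-gene results on the same side of the limit and took Derl3 with HFD past it (0.59). No paired analysis was possible because the tables hold 1 pooled value per group, and for the same reason no liver could be left out in turn. Without read counts, the depth behind values under 1 FPKM, such as those of Pdia6, Calr and Hsp90b1, limits what they show.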
